A study of Arabidopsis thaliana with 22 samples.

Results

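Transcript levels in mature leaves were compared with those in leaf primordia of Arabidopsis thaliana plants grown at elevated CO2. The comparison used 8 of the series' 22 Affymetrix arrays, 4 from mature leaves and 4 from primordia, chosen from the stage and CO2 level in the sample labels. All groups were leaf 10 of wild-type Col-0 plants on soil, kept for 7 days at 370 ppm CO2 and then randomized between 2 growth chambers, of which 1 stayed at 370 ppm and the other was held at 750 ppm. Day and night lasted 10 h at 21 °C and 14 h at 18 °C, and the light was 300 µmol m-2 s-1. Each primordia replicate was dissected from 20 pooled plants after penetration of the frozen tissue with an RNA preservative, while mature leaves were taken whole and frozen directly, so stage and handling cannot be told apart. The 3 expanding-leaf arrays at 750 ppm and the 8 primordia and mature arrays at 370 ppm are used below for reference only. The series title names leaf dark respiration at elevated CO2, and how it depends on developmental stage, as the subject.

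A leaf primordium is a small mass of dividing cells at the flank of the shoot apex. Its cells replicate DNA and build ribosomes, then stop dividing and enlarge while their plastids become chloroplasts. A mature leaf is a source organ that fixes carbon, stores starch by day and exports sucrose through the phloem, and its mitochondria continue to respire in the dark.

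The values are on a log2 scale on which the median probe set of each array is 0, so each level is relative to that median, a change shared by most transcripts cannot be seen, and levels are compared between arrays and not between genes. Changes are mature minus primordia with the moderated standard error (SE) of 1 limma fit over all 22 arrays, and a probe set was called at a Benjamini-Hochberg adjusted p under 0.05 over 12511 probe sets. Among the 8 arrays, the first principal component separated the stages and held 91.9% of the variance. Primordia replicates correlated with each other at r = 0.987 to 0.992 over probe sets and mature replicates at r = 0.969 to 0.987, against 0.693 to 0.783 between the stages. Mature replicates 3 and 4 stood apart from replicates 1 and 2 on the second component of all 22 arrays, at 36.3 and 27.7 against 11.6 and 7.07. Their 3-prime minus 5-prime signal, from 2 pairs of control probe sets, was 1.13 and 1.11, against 1.36 and 1.36 in replicates 1 and 2 and 1.17 to 1.37 in primordia. With that signal as a covariate 9859 probe sets were called, and 4282 at 2-fold, against 9856 and 4332 without it. Why the 2 arrays stand apart was not tested. List counts, and the genes most affected, are given with and without mature replicates 3 and 4 where they move.

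Mature leaves and primordia differed in most of the transcripts measured. In limma, 9856 of 12511 probe sets were called (78.8%), 4899 of them higher in mature leaves (39.2%) and 4957 lower (39.6%), and the median change of all probe sets was -0.01. The 4 mature and 4 primordia arrays did not overlap for 9085 probe sets (72.6%), 4475 with the mature arrays above (35.8%) and 4610 with them below (36.8%). A called change of at least 2-fold was seen in 4332 probe sets (34.6%), with 2185 higher (17.5%) and 2147 lower (17.2%), and limma's treat, which tests against a change of 1, called 2839 (22.7%). Large changes were more often rises: 629 probe sets were at least 4-fold higher and 499 at least 4-fold lower, 189 and 116 passed 8-fold, and 22 and 6 passed 32-fold. Because about 4 in 5 probe sets were called, the counts of each gene group below are read against these shares. In bulk tissue, fewer cells of a type and less RNA per cell cannot be told apart.

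Among the 15 largest rises of named genes were transcripts of sugar and glucosinolate metabolism. SWEET11, a sucrose exporter that loads the phloem, was at -2.31, -2.11, -2.35 and -2.07 in the primordia arrays and at 3.98, 3.94, 3.95 and 4.17 in the mature arrays. The groups lay far apart, with little spread within either, and the change was 6.22 ± 0.17, or 74.5-fold (adjusted p = 5.88e-17). ATSPS4F, a sucrose-phosphate synthase, was at -1.31, -0.95, -2.73 and -1.69 in primordia and at 3.97, 3.98, 3.43 and 3.71 in mature leaves, a change of 5.44 ± 0.27. BCAT4, a methionine aminotransferase that starts the side-chain elongation of aliphatic glucosinolates, was at -3.15, -2.39, -3.34 and -2.24 in primordia. In mature leaves it was at 2.93, 2.51, 2.70 and 2.74, a 45.2-fold difference (change 5.50 ± 0.35). All 3 genes were low in every primordium array and well above the array median in every mature array. RING1, a RING-type ubiquitin ligase, rose by 6.69 ± 0.43. The largest rise of a named gene was in AT1G23130, which the gene table leaves without a symbol, at 7.70 ± 0.26 or 207-fold, and AT1G67865, AT4G00780 and AT1G30250 rose by 6.56 ± 0.17, 6.35 ± 0.18 and 6.10 ± 0.36.

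The largest falls included genes of secreted proteases, chromosome structure and membrane traffic. SBT1.3, a subtilisin-like protease, was at 3.61, 3.58, 3.66 and 3.63 in primordia and at -1.56, -1.94, -2.50 and -2.19 in mature leaves, a 50.9-fold difference (change -5.67 ± 0.22, adjusted p = 4.37e-15). 3xHMG-box2, an HMG-box protein that binds chromosomes in mitosis, was at 2.81, 2.52, 2.77 and 2.57 in primordia and at -2.12, -2.09, -2.32 and -2.03 in mature leaves (change -4.81 ± 0.16). Neither transcript's groups came near each other, and SBT1.3 was the more spread in mature leaves. VPS2.2, an ESCRT-III subunit, was at 1.41, 1.49, 1.40 and 1.56 in primordia and at -2.44, -2.63, -3.58 and -2.97 in mature leaves (change -4.37 ± 0.18). ATLP-1, a thaumatin-like protein, changed by -5.19 ± 0.26, the drought-induced gene DI21 by -4.45 ± 0.19 and the bHLH factor gene ATMYC1 by -4.33 ± 0.30. AT2G28790, AT4G29020 and AT5G48360, without a symbol in the gene table, were among the 5 largest falls of named genes at -5.51 ± 0.26, -5.23 ± 0.30 and -4.91 ± 0.23.

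**Figure D1:**
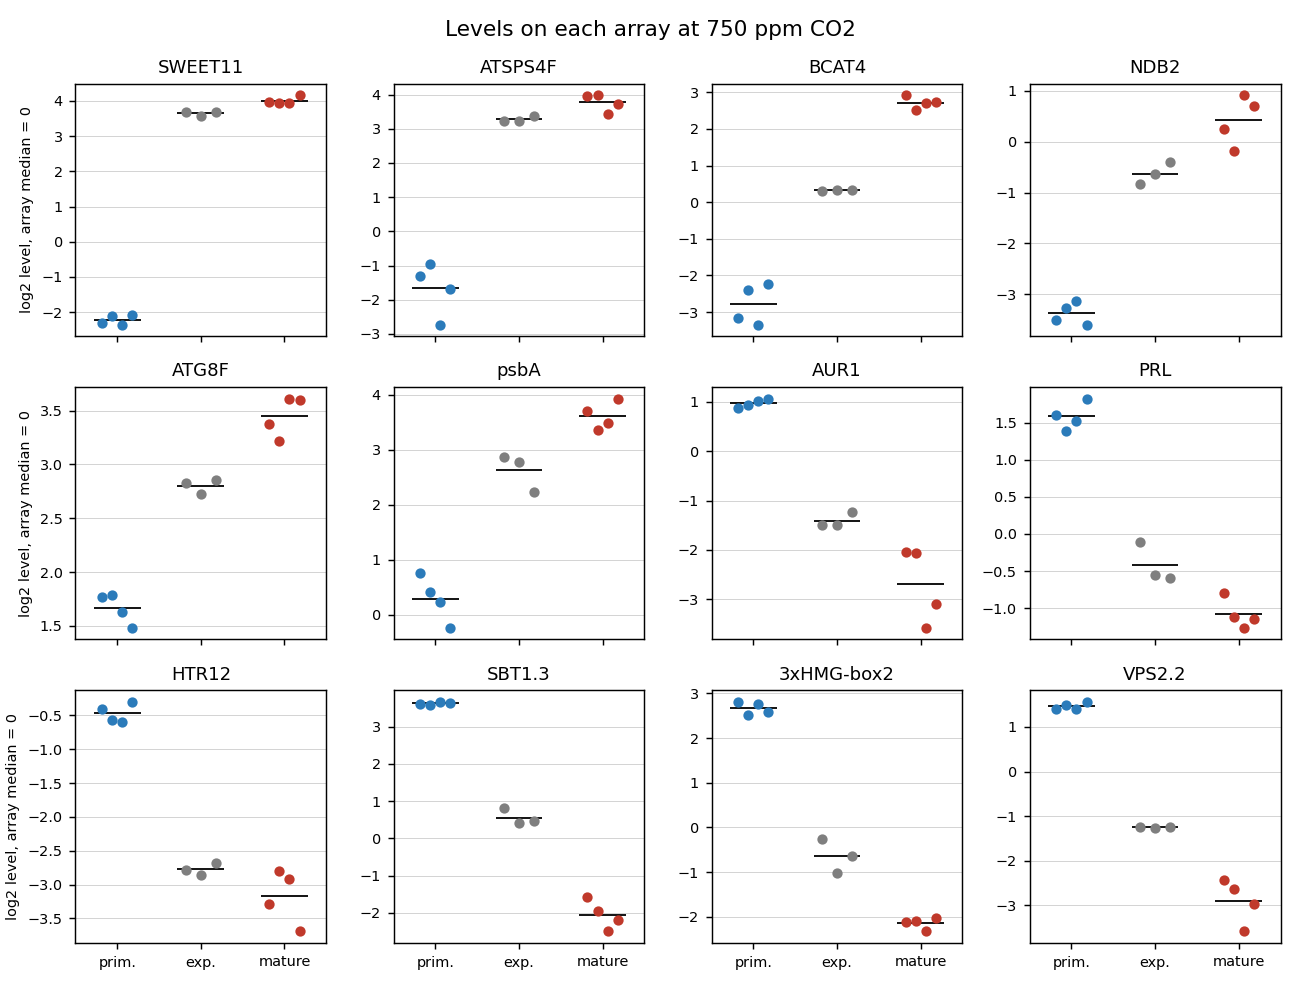
Log2 levels, with the median probe set of each array at 0, of 12 named genes in the 4 primordia, 3 expanding-leaf and 4 mature-leaf arrays at 750 ppm CO2; each point is an array and each bar a group mean. In all 12 panels the expanding mean lies between the other two. SWEET11 was already at 3.59 to 3.68 in expanding leaves, while BCAT4 was at 0.30 to 0.33, about midway.

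Transcripts of the cytosolic ribosome were lower in mature leaves almost without exception. Of 204 listed cytosolic ribosomal protein genes 111 were measured, and 110 of these were called lower and 1 higher, against 39.6% of all probe sets called lower. At least 2-fold lower were 102, against 17.2% of all probe sets, and the median change was -1.57. The median level of the 111 genes was 4.45, 4.42, 4.48 and 4.55 in the primordia arrays and 3.03, 3.11, 2.75 and 2.76 in the mature arrays, so that the groups did not come near each other. Expanding leaves lay between, at 3.39, 3.33 and 3.34. The largest fall was in AT4G30800, which was at 1.55, 1.41, 1.62 and 1.80 in primordia and at -1.30, -0.72, -1.62 and -1.46 in mature leaves (change -2.87 ± 0.16). The exception, AT5G39850, was at -1.42, -1.20, -1.54 and -1.01 in primordia and at -0.90, -0.47, -0.49 and -0.63 in mature leaves, a rise of 0.67 ± 0.17, and its change at 370 ppm was 0.13 ± 0.17.

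The machinery that assembles ribosomes was lower too. All 18 measured genes of ribosome biogenesis were called lower and all 18 by at least 2-fold, with a median change of -1.82 and a range of -2.74 to -1.23. AT4G04940 was at 0.78, 0.41, 0.87 and 0.94 in primordia and at -1.94, -1.82, -2.08 and -2.13 in mature leaves (change -2.74 ± 0.16). IMP4, a protein of the small subunit processome, fell by 1.40 ± 0.10. In contrast to the ribosomal proteins, the list's median level in expanding leaves, at 0.14, 0.17 and 0.26, was already near that of mature leaves, at -0.01, 0.21, -0.03 and -0.10, while primordia were at 1.96, 1.88, 1.93 and 2.18. The subunits of the RNA polymerases moved the same way. NRPA1 and NRPA2, the largest subunits of RNA polymerase I, which transcribes ribosomal RNA genes, changed by -2.05 ± 0.15 and -1.81 ± 0.15, and NRPC2 of RNA polymerase III by -1.56 ± 0.11. NRPB12 and NRPB7, small subunits of RNA polymerase II, changed by -1.35 ± 0.09 and -0.59 ± 0.09.

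**Figure D2:**
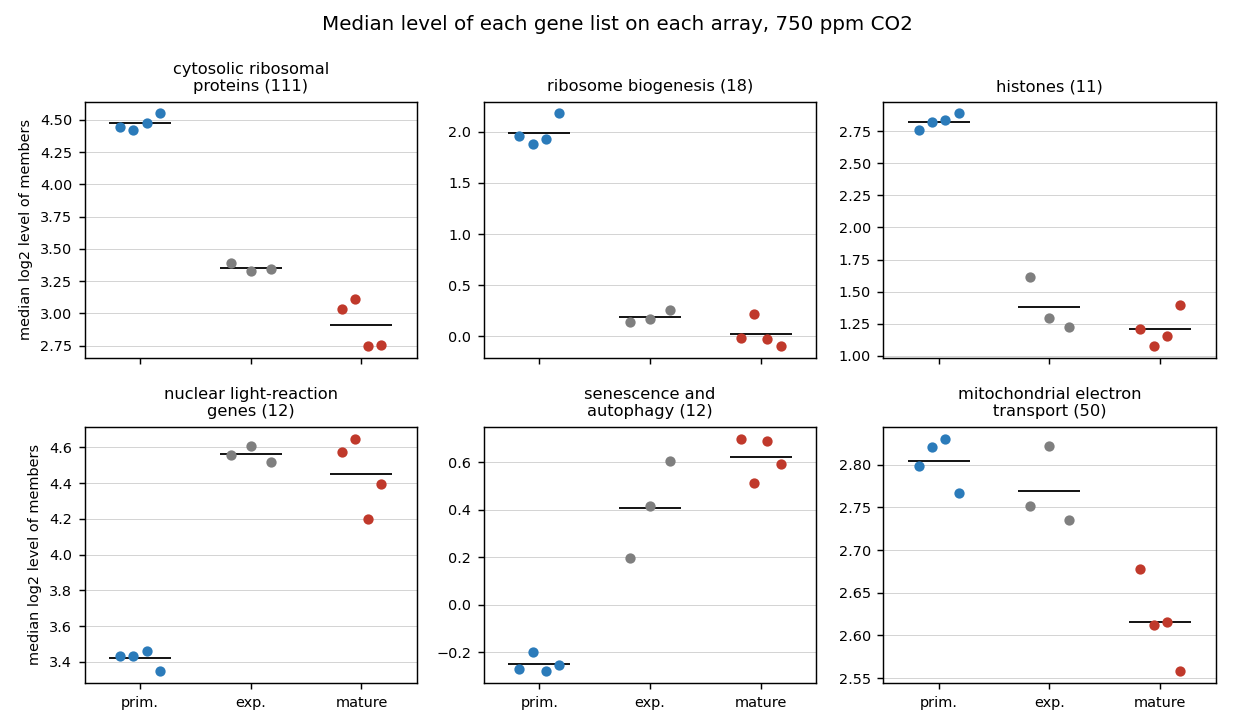
Median log2 level of the measured members of 6 gene lists on each array at 750 ppm CO2, with the number measured in each title; points are arrays and bars are group means, and each panel has its own scale. Ribosome biogenesis and histone medians drop between primordia and expanding leaves, while the electron transport medians stay within 2.56 to 2.83 on all arrays.

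Cell division genes were few on the named probe sets, and all that were measured were lower in mature leaves. The mitotic kinase AUR1 was at 0.88, 0.94, 1.01 and 1.07 in primordia and at -2.04, -2.06, -3.58 and -3.09 in mature leaves, a 12.7-fold difference (change -3.67 ± 0.23, adjusted p = 7.82e-12). Mature replicates 3 and 4 were the lowest 2. PRL, the MCM7 subunit of the replicative helicase, was at 1.61, 1.38, 1.53 and 1.82 in primordia and at -0.80, -1.12, -1.27 and -1.15 in mature leaves (change -2.67 ± 0.13). ICU2, the catalytic subunit of DNA polymerase alpha, fell by 1.88 ± 0.15, and SIM, an inhibitor of cyclin-dependent kinases, by 1.06 ± 0.10.

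Histone transcripts followed the same direction. Of 11 measured histone genes, 10 were called lower, 8 of them at least 2-fold, and none higher (median change -1.27). HTR12, the centromeric histone, was at -0.40, -0.57, -0.60 and -0.30 in primordia and at -3.29, -2.80, -2.92 and -3.69 in mature leaves (change -2.71 ± 0.16). HTB1, a histone of the nucleosome core, was at 3.00, 2.97, 2.93 and 3.06 in primordia and at 0.55, 0.69, 0.26 and 0.36 in mature leaves (change -2.53 ± 0.13). Neither pair of groups overlapped. HON4, a linker histone, fell by 0.56 ± 0.09, and AT2G28720 was the member not called, at 0.06 ± 0.09. Probe sets of close paralogues such as histones, tubulins and ribosomal proteins can bind each other's transcripts, and the part of this in single values was not tested.

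Chromatin and splicing factors were also mostly lower. In the list of RNA polymerases, chromatin and gene silencing, 16 of 18 measured genes were called lower and 1 higher (median change -1.04). CHR17, an ISWI-type chromatin remodeller, changed by -1.73 ± 0.09 and HDA15, a histone deacetylase, by -1.05 ± 0.11. AGO7, the Argonaute protein that acts in the trans-acting siRNA pathway of leaf polarity, was the member called higher at 0.38 ± 0.14, and without mature replicates 3 and 4 its change was 0.23 with adjusted p = 0.212 in limma. The call of AGO7 was also lost without mature replicate 3 or without primordia replicate 4. Of 13 measured LSM and splicing factors, 12 were called lower and none higher (median change -0.59), or 10 and none without mature replicates 3 and 4, among them PRP39 of the U1 complex at -1.31 ± 0.10 and LSM6B, a ring subunit of the LSM complex, at -1.18 ± 0.11. LSM6A, the other LSM6 gene, was at 0.09 ± 0.09.

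**Figure D3:**
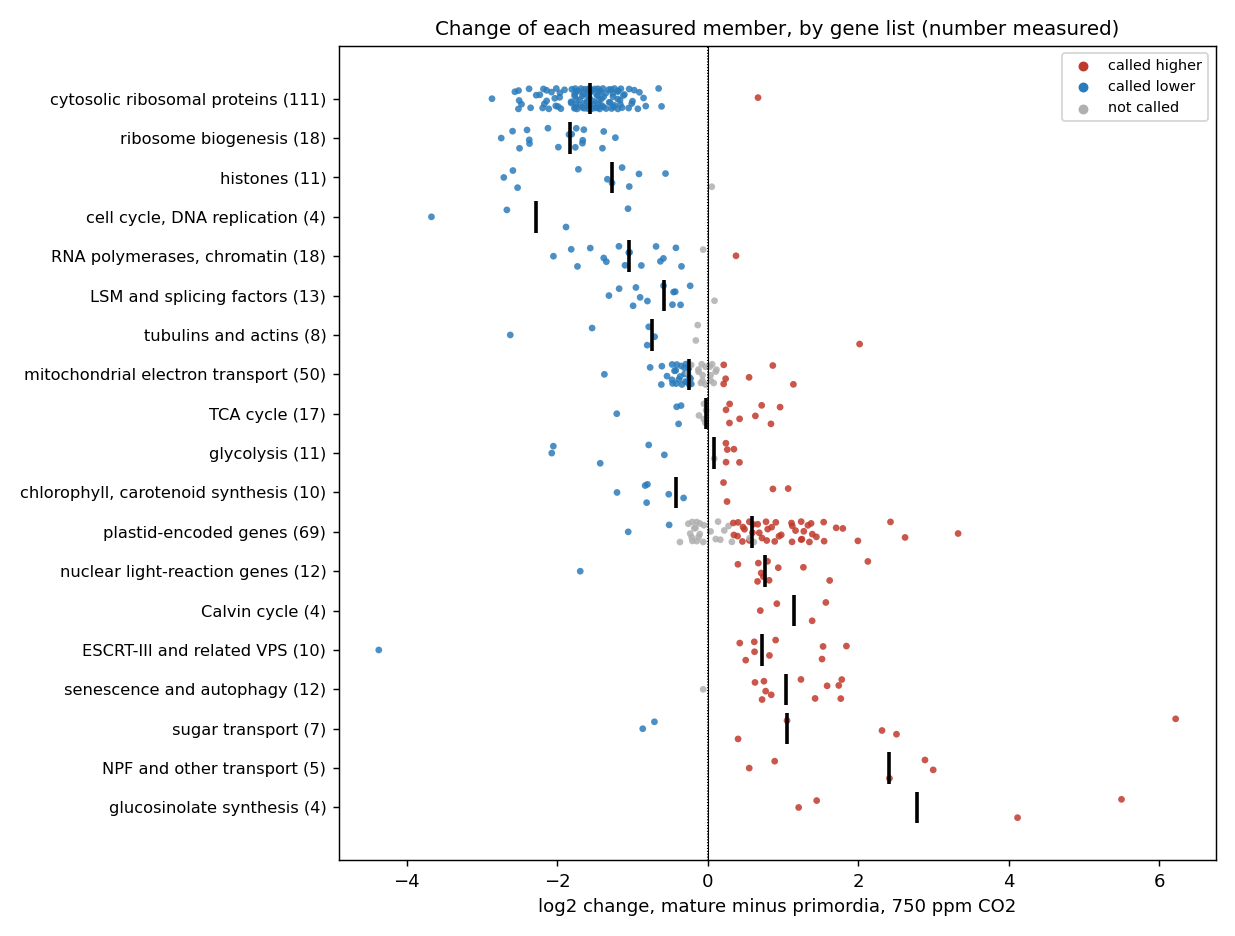
Log2 change, mature minus primordia at 750 ppm CO2, of every measured member of 19 gene lists; each point is a gene, coloured by its call at adjusted p under 0.05, bars are list medians and the dotted line is the median of all probe sets. Ribosomal protein, ribosome biogenesis and histone genes lie left of 0 except AT5G39850, called higher, and AT2G28720, not called, and the glucosinolate genes lie right of 0.

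Genes of the cytoskeleton and of cell wall growth were divided by family member. TUB7, a beta-tubulin, was at 2.78, 2.71, 2.88 and 2.96 in primordia and at 0.43, 0.62, -0.20 and -0.01 in mature leaves (change -2.62 ± 0.14). TUA1, an alpha-tubulin, was the measured tubulin gene called higher, at -0.73, -1.48, -0.90 and -0.77 in primordia and at 0.91, 0.86, 1.29 and 1.14 in mature leaves (change 2.02 ± 0.16). Of 8 tubulin and actin genes 5 were called lower and 1 higher. Without mature replicates 3 and 4 the count called lower was 4. Among wall-loosening genes, 5 of 11 were called higher and 4 lower (median change -0.07), or 4 and 4 without those arrays (median 0.33). The first shares, 45.5% and 36.4%, were near the 39.2% and 39.6% of all probe sets. XTH16, a xyloglucan endotransglucosylase/hydrolase, was at 1.35, 1.24, 1.42 and 1.18 in primordia and at -1.86, -1.59, -2.52 and -3.59 in mature leaves (change -3.69 ± 0.28), and EXPA15, an expansin, fell by 2.83 ± 0.17. EXLB1, an expansin-like gene, went the other way, from -2.62, -3.12, -3.17 and -4.41 to 0.72, 0.90, 0.37 and 0.34 (change 3.91 ± 0.28), and it was higher still in expanding leaves, at 1.22, 1.44 and 1.23. EXPA8 had the same order, with a mean of 1.55 in the expanding stage against -2.01 in primordia and 0.66 in mature leaves. Of 8 genes of cellulose and hemicellulose synthesis 2 were called higher and 2 lower (median change 0.02), or 3 and 2 without those arrays. CSLC04, a glucan synthase of xyloglucan, rose by 2.02 ± 0.11, while its relatives ATCSLC08 and CSLC5 changed by -1.17 and -0.91.

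Of the regulators of leaf identity and hormone response, few were on named probe sets. YAB3, a YABBY factor of the lower leaf side, was at 1.21, 1.21, 1.35 and 1.54 in primordia and at -0.30, -0.25, -0.55 and -0.55 in mature leaves (change -1.74 ± 0.11). PHV, an HD-ZIP factor of the upper side, fell by 1.00 ± 0.12 and TCP15, a growth regulator, by 1.18 ± 0.11, while YAB5 rose by 0.56 ± 0.15. The auxin synthesis gene YUC2 fell by 1.26 ± 0.19. Both measured cytokinin response regulators were called, ARR15 lower at -2.27 ± 0.22 and RR16 higher at 1.01 ± 0.14. GID1A, a gibberellin receptor, rose by 1.04 ± 0.12. Of the 10 measured IQD proteins, which bind calmodulin and microtubules, 7 were called lower and 1 higher, or 5 and 1 without mature replicates 3 and 4, with iqd21 at -2.13 ± 0.20 and IQD24 at 0.73 ± 0.11. Of 5 RALF signalling peptides 4 were called lower, and RALFL33 rose by 2.20 ± 0.09.

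Genes of the photosynthetic light reactions were higher in mature leaves, by less than the growth genes were lower. Of 12 nuclear light-reaction genes, 11 were called higher, against 39.2% of all probe sets, and 1 lower (median change 0.77). At least 2-fold higher were 3. LHCB4.3, a minor antenna protein of photosystem II, was at 2.31, 2.51, 2.30 and 1.87 in primordia and at 4.44, 4.65, 4.21 and 4.20 in mature leaves (change 2.13 ± 0.17). PGRL1B, a protein of cyclic electron flow, rose by 1.62 ± 0.13, and PSB27, which acts in photosystem II assembly, by 1.27 ± 0.13. The gene that was lower was ATPC2, the second gene for the gamma subunit of the chloroplast ATP synthase, at -0.91, -1.01, -0.90 and -1.01 in primordia and at -2.70, -2.36, -2.57 and -2.96 in mature leaves. ATPC1, the other gamma subunit gene, rose by 0.94 ± 0.11. The list's median level was 3.43, 3.43, 3.46 and 3.35 in primordia, 4.56, 4.61 and 4.52 in expanding leaves and 4.57, 4.65, 4.20 and 4.39 in mature leaves, so that expanding leaves already stood at the mature level.

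Carbon fixation and photorespiration genes went with them. All 4 measured Calvin cycle genes were called higher (median change 1.15). PRK, phosphoribulokinase, was at 4.10, 4.11, 4.09 and 3.96 in primordia and at 5.59, 5.56, 5.36 and 5.32 in mature leaves (change 1.39 ± 0.11), SBPASE, sedoheptulose-bisphosphatase, rose by 0.92 ± 0.14 and RCA, Rubisco activase, by 0.70 ± 0.08, or 0.44 with quantile normalization. Of 5 photorespiration genes 4 were called higher and 1 lower. HPR, peroxisomal hydroxypyruvate reductase, was at 3.90, 3.89, 3.74 and 3.49 in primordia and at 5.12, 5.14, 4.87 and 5.02 in mature leaves (change 1.28 ± 0.12). AT2G35120 was the member called lower, at -1.70 ± 0.13.

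Tetrapyrrole synthesis, which makes chlorophyll and haem, did not share this direction. Of 10 measured genes of chlorophyll and carotenoid synthesis, 6 were called lower and 4 higher (median change -0.42), or 4 and 4 without mature replicates 3 and 4 (median -0.22). HEME1, a uroporphyrinogen decarboxylase, was at 2.26, 2.22, 2.36 and 1.98 in primordia and at 1.27, 1.27, 0.57 and 0.89 in mature leaves (change -1.20 ± 0.16). HEME2 fell by 0.81 ± 0.13, HEMB1, aminolevulinate dehydratase, by 0.80 ± 0.09, and GSA1, an early enzyme of the pathway, by 0.83 ± 0.11. HEMA2, a glutamyl-tRNA reductase, rose by 1.07 ± 0.13, and LYC, a lycopene cyclase of carotenoid synthesis, by 0.87 ± 0.11. Cpn60beta2, a plastid chaperonin subunit, was at 3.99, 3.88, 4.13 and 3.95 in primordia, at 3.49, 3.34 and 2.54 in expanding leaves and at 0.90, 1.79, 0.19 and 0.27 in mature leaves (change -3.20 ± 0.29), so most of its fall came after expansion.

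Genes encoded in the plastid genome were measured for 69 of 84 listed, and 43 were called higher in mature leaves and 2 lower (median change 0.60). Without mature replicates 3 and 4 the counts were 50 and 0 (median 0.77). The RNA was labelled with a 3-prime kit, and how well that kit labels transcripts of the plastid genome was not tested. The values of these genes need not follow their transcript amounts. The genes are grouped here by the product named in their symbol, a grouping made after their values had been seen. Of 15 photosystem II genes 14 were called higher, of 5 photosystem I genes 4, of 6 cytochrome b6f genes 5, and of 6 ATP synthase genes all 6, with medians between 0.89 and 1.06. Of 10 genes of the NDH complex, which passes electrons from ferredoxin to plastoquinone, 8 were called higher (median 0.80). The rises of atpE, atpB and ndhI, at 0.35, 0.34 and 0.40, were 0.03, 0.04 and 0.07 with quantile normalization. The median of all 69 genes was 0.60 with that scaling too. Of 15 genes for plastid ribosomal proteins 1 was called higher and 2 lower, and 12 were not called (median -0.14). None of the 4 RNA polymerase genes was called in limma (median -0.18), and none of them had an unadjusted p under 0.05. Without mature replicates 3 and 4 the ribosomal protein median was 0.26, with 3 called higher and none lower, and the RNA polymerase median was 0.15, again with none called.

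Single plastid genes showed how wide the range was. psbA, which encodes the D1 protein of photosystem II, was at 0.76, 0.41, 0.22 and -0.24 in primordia and at 3.70, 3.35, 3.49 and 3.93 in mature leaves (change 3.33 ± 0.24). ndhK, an NDH subunit gene, was at 1.83, 1.22, 1.32 and 0.24 in primordia and at 4.12, 4.21, 3.09 and 3.68 in mature leaves (change 2.62 ± 0.32). Both were higher in every mature array than in any primordium array. rbcL, the large subunit of Rubisco, rose by 0.72 ± 0.19, and accD, a subunit of plastid acetyl-CoA carboxylase, by 1.45 ± 0.26. rps15 was at 2.09, 1.90, 1.79 and 1.27 in primordia and at 1.18, 1.22, -0.16 and 0.59 in mature leaves (change -1.06 ± 0.30), and without mature replicates 3 and 4 its change was -0.56 with adjusted p = 0.11 in limma. rps16 was at -0.51 ± 0.22 with those arrays and -0.12 without, and its call was also lost without mature replicate 3 or 4 or without primordia replicate 2 or 3. The 2 mature arrays with the lower 3-prime minus 5-prime signal were thus the lowest for both genes. With that signal as a covariate 1 of the 349 named genes lost its call, and its part in the size of these 2 changes was not tested.

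**Figure D4:**
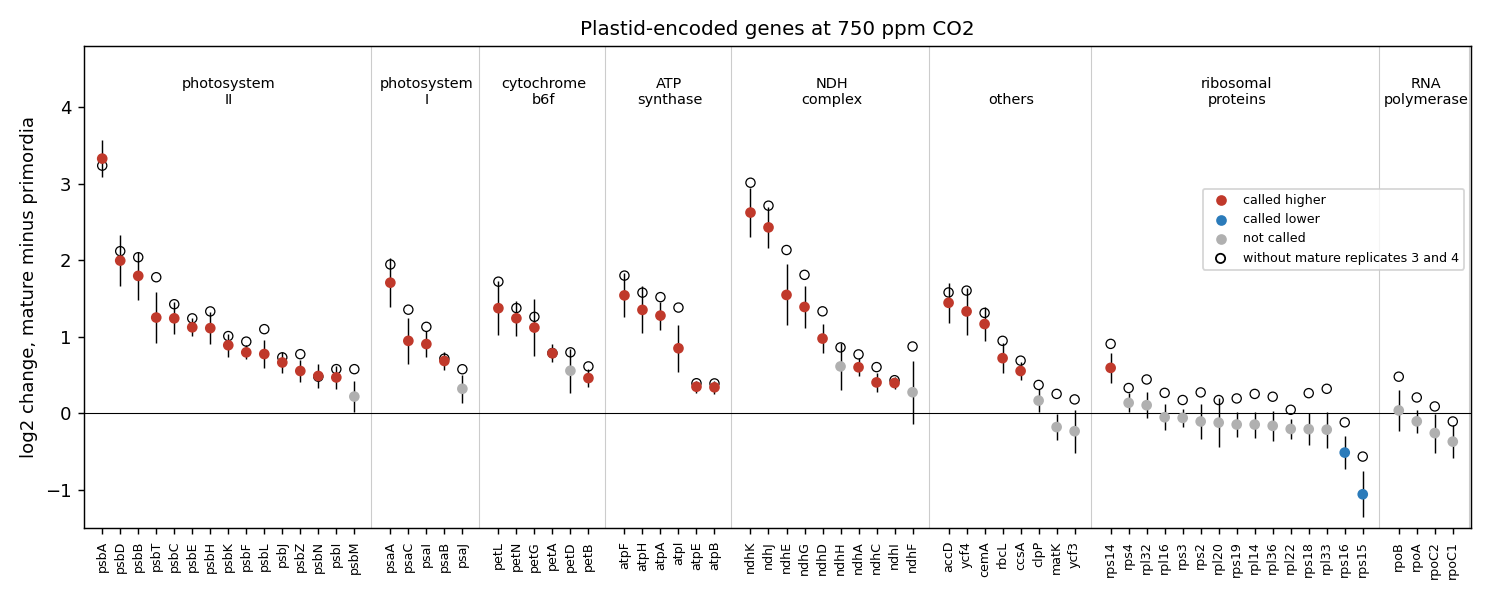
Log2 change, mature minus primordia at 750 ppm CO2, of the 69 measured plastid-encoded genes, grouped by product; filled points are the changes with their SE, coloured by call, and open circles are the changes without mature replicates 3 and 4. Genes of the photosynthetic complexes lie above 0, from 0.22 to 3.33, while the ribosomal protein and RNA polymerase genes lie between -1.06 and 0.60.

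Sugar transport and storage genes were mostly higher in mature leaves. Of 7 sugar transport genes 5 were called higher and 2 lower (median change 1.06). Beside SWEET11, the SWEET transporters SWEET4 and SWEET2 rose by 2.51 ± 0.20 and 2.32 ± 0.15, while SWEET1 fell by 0.86 ± 0.11. The vacuolar sugar importers divided, TMT1 rising by 1.06 ± 0.08 and TMT2 falling by 0.71 ± 0.12. APL3, a large subunit of ADP-glucose pyrophosphorylase in starch synthesis, was at -2.24, -1.91, -2.34 and -2.22 in primordia and at -0.90, -0.49, 0.23 and -0.32 in mature leaves (change 1.81 ± 0.19). APL4 of the same list was not called at -0.43, but was called lower without mature replicate 2. PWD, a kinase of starch breakdown, rose by 0.71 ± 0.10, and DPE1, a plastid disproportionating enzyme, fell by 0.48 ± 0.10. Of the 5 measured genes of starch metabolism 3 were called higher and 1 lower (median change 0.43).

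All 5 measured genes of nitrate and other ion transport were called higher (median change 2.42). AT3G21670, annotated as NPF6.4 of the nitrate and peptide transporter family, rose by 3.00 ± 0.21 and AT1G68570, annotated as NPF3.1, by 2.42 ± 0.19. The glucosinolate transporters GTR1 and GTR2 rose by 0.55 ± 0.16 and 0.89 ± 0.12, and the rise of GTR1 was 0.35 without mature replicate 2. All 4 measured genes of glucosinolate synthesis were called higher and by at least 2-fold (median change 2.78). Beside BCAT4, AT2G25450 was at -1.67, -1.56, -1.42 and -1.41 in primordia and at 2.67, 2.52, 2.75 and 2.47 in mature leaves (change 4.12 ± 0.13), and UGT74B1, a glucosyltransferase late in the pathway, rose by 1.45 ± 0.12. BCAT4 rose in steps, since its expanding leaves at 0.30, 0.33 and 0.32 were about midway between the stages. In sulfur assimilation, APS4, an ATP sulfurylase, was at -1.59, -1.32, -1.59 and -1.23 in primordia and at 1.76, 1.60, 1.85 and 1.72 in mature leaves (change 3.17 ± 0.16). APK1A, a kinase gene in the same list, fell by 1.94 ± 0.13, and whether it acts in sulfur assimilation was not tested.

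Respiration genes, which the series title concerns, moved little beside the growth genes and not all in 1 direction. Of 50 measured genes of mitochondrial electron transport, 27 were called lower and 6 higher, against 39.6% and 39.2% of all probe sets (median change -0.24), and 1 in each direction reached 2-fold. Without mature replicates 3 and 4 the counts were 19 lower and 4 higher (median -0.17). The median level of the 50 genes was 2.80, 2.82, 2.83 and 2.77 in primordia and 2.68, 2.61, 2.62 and 2.56 in mature leaves, a narrow but separate pair of ranges. The 2 cytochrome c genes went opposite ways. CYTC-1 was at 4.28, 4.29, 4.33 and 4.23 in primordia and at 3.78, 3.84, 3.83 and 3.78 in mature leaves (change -0.47 ± 0.06). CYTC-2 was at -0.01, 0.26, 0.16 and 0.06 in primordia and at 1.11, 1.58, 1.13 and 1.22 in mature leaves (change 1.14 ± 0.11). The largest fall was in AT5G61310, at -1.37 ± 0.13.

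The largest change among the respiratory genes was in a bypass of complex I. NDB2, an NADH dehydrogenase on the outer face of the inner mitochondrial membrane, was at -3.51, -3.27, -3.13 and -3.59 in primordia, at -0.84, -0.64 and -0.40 in expanding leaves and at 0.25, -0.18, 0.92 and 0.71 in mature leaves. The change was 3.80 ± 0.30, or 13.9-fold (adjusted p = 2.20e-10), against 2.60 ± 0.30 at 370 ppm. Its relative NDB1 fell by 0.41 ± 0.09, and NDC1, not called at 0.18 ± 0.12, was called at 0.33 without mature replicates 3 and 4. In the TCA cycle, 8 of 17 genes were called higher and 4 lower (median change -0.02), or 7 and 4 without mature replicates 3 and 4 (median 0.07). IDH-V, a catalytic subunit of isocitrate dehydrogenase, was at 1.99, 1.92, 1.84 and 1.96 in primordia and at 2.70, 2.51, 2.96 and 2.91 in mature leaves (change 0.84 ± 0.10), while the succinate dehydrogenase subunits SDH1-1 and SDH2-2 fell by 0.35 ± 0.09 and 0.39 ± 0.11.

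Of 11 glycolysis genes 5 were called higher and 5 lower (45.5% each), near the 39.2% and 39.6% of all probe sets (median change 0.09). Without mature replicates 3 and 4 the counts were 3 and 5. AT5G08570, AT5G56350 and AT5G63680, called higher, each lost that call when certain single arrays were left out. The falls were the larger: AT1G76550 was at 1.38, 1.49, 1.40 and 1.52 in primordia and at -0.40, -0.68, -0.68 and -0.73 in mature leaves (change -2.07 ± 0.09), AT1G12000 changed by -2.05 ± 0.11 and AT1G20950 by -1.43 ± 0.08. ENOC, an enolase, fell by 0.78 ± 0.09, and GAPC2 and TPI, a glyceraldehyde-3-phosphate dehydrogenase and triose-phosphate isomerase, rose by 0.24 ± 0.07, or 0.16 with quantile normalization, and by 0.35 ± 0.06. With quantile normalization the medians of the glycolysis and TCA cycle lists were 0.04 and -0.11, and with centring on the 75th percentile 0.01 and -0.10. ATP-citrate lyase, which makes cytosolic acetyl-CoA, had 3 of 4 genes called lower, with ACLA-2 at -1.85 ± 0.11, and ACLA-3 called higher at 0.48 ± 0.10.

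Autophagy genes of the ATG8 family were higher in mature leaves. Of 12 measured genes of senescence and autophagy, 11 were called higher and none lower (median change 1.04), and 6 reached 2-fold. Most of the 12 were ATG8 paralogues, whose probe sets can bind each other's transcripts. The members outside ATG8 were SAG101 and ATG3, given below, and AT5G66930, which rose by 0.72. ATG8F, a ubiquitin-like protein that coats autophagosome membranes, was at 1.77, 1.79, 1.63 and 1.48 in primordia, at 2.83, 2.73 and 2.86 in expanding leaves and at 3.37, 3.22, 3.61 and 3.60 in mature leaves (change 1.78 ± 0.10). Its relatives APG8H, ATG8B and ATG8D rose by 1.74 ± 0.12, 1.59 ± 0.18 and 1.43 ± 0.13. SAG101, a lipase-like protein of senescence and immunity, was at -2.62, -2.59, -2.45 and -2.56 in primordia and at -0.65, -0.65, -0.99 and -0.85 in mature leaves (change 1.77 ± 0.25). ATG3, the conjugating enzyme for ATG8, was not called at -0.06 ± 0.08.

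ESCRT-III cuts membrane necks in vesicle sorting and cytokinesis, and its genes were listed with those of related VPS proteins. Of 10 measured genes of this list 9 were called higher (median change 0.72). SNF7.1 was at -0.46, -0.43, -0.43 and -0.80 in primordia and at 1.28, 1.08, 1.49 and 1.40 in mature leaves (change 1.84 ± 0.10), and VPS2.1 rose by 1.52 ± 0.10. VPS2.2, described above among the largest falls, was the member called lower. Of 28 glutathione transferases and glycosyltransferases, which conjugate small molecules, 17 were called higher and 5 lower (median change 0.81), or 18 and 4 without mature replicates 3 and 4. GT72B1 was at -0.43, -0.15, -0.49 and -0.51 in primordia and at 2.33, 2.47, 2.23 and 2.23 in mature leaves (change 2.71 ± 0.12), and GSTU18 rose by 2.30 ± 0.11. UGT78D2 and UGT78D1, glycosyltransferases of flavonols, were lower, at -1.54 ± 0.13 and -1.16 ± 0.14. Of 9 measured cytochrome P450 genes 7 were called higher and 1 lower.

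Cold, dehydration and defence genes had large single changes in both directions. Of 10 cold, dehydration and metallothionein genes, 6 were called higher and 3 lower, or 5 and 3 without mature replicates 3 and 4. COR15A, a chloroplast protein of cold acclimation, was at -1.83, -1.33, -1.54 and -1.47 in primordia and at 2.20, 2.10, 3.02 and 2.83 in mature leaves (change 4.08 ± 0.25), and MT1C, a metallothionein, rose by 3.40 ± 0.22. LCR69, a defensin-like peptide, was at 5.03, 4.93, 4.97 and 5.09 in primordia and at 1.44, 1.69, 1.33 and 1.58 in mature leaves (change -3.49 ± 0.12). PDF1.2, a jasmonate-induced defensin, was at 0.27, 0.44, -0.50 and -0.07 in primordia and at 2.64, 1.75, 3.26 and 1.89 in mature leaves (change 2.35 ± 0.39). LCR69 and PDF1.2 thus changed in opposite directions. Of the 4 measured genes of the defence list 1 was called higher and 3 lower (median change -0.78), with LCR68 and ChiC at -0.80 and -0.76.

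Cell type markers could be read only in part. RCA, a mesophyll gene, was high in both stages. STOMAGEN, a peptide of inner leaf cells that raises stomatal density, was at 2.39, 2.15, 2.41 and 2.02 in primordia and at 0.99, 1.01, -1.31 and -0.15 in mature leaves (change -2.11 ± 0.33), and its change was -1.24 without mature replicates 3 and 4. FMA, a factor of guard cell differentiation, fell by 0.74 ± 0.15, and TRY, a trichome patterning gene, rose by 0.59 ± 0.18 with overlapping groups. The lists of xylem, phloem, shoot meristem, epidermis, root, flower and seed markers had no member on a probe set naming 1 gene and were not analysed here, so the mix of cell types behind these changes was not tested.

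Some transcripts were level across the stages. Of the 2655 probe sets not called, 1974 had a 95% interval of the change within 0.5 of 0. CUL4, a cullin scaffold of ubiquitin ligases, was at 1.91, 1.77, 1.84 and 1.79 in primordia and at 1.81, 1.83, 1.79 and 1.86 in mature leaves, and its interval ran from -0.15 to 0.14. The interval of SP1L3, a SPIRAL1-like protein of microtubules, ran from -0.17 to 0.12.

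Few transcripts had an expanding-leaf mean far outside both other stages. These are given as levels, with no test. Among probe sets called higher, 17 had an expanding mean more than 1 above both stages and 2 more than 1 below. Among those called lower, 2 were above and 5 below, and among those not called 31 were above and 5 below. BZIP61, a bZIP factor, averaged -2.40 in primordia, -0.38 in mature leaves and 1.02 in the expanding stage. PYE, a bHLH regulator of iron homeostasis, averaged -1.55, -0.94 and 0.11 in the same order, and its rise of 0.61 ± 0.24 was 0.16 without mature replicates 3 and 4 (adjusted p = 0.551 in limma). The call of PYE was also lost without mature replicate 3 or 4 or primordia replicate 2 or 3 alone. AT2G38870 was lowest in expanding leaves, with means of 2.85 in primordia, 1.79 in mature and 0.37 in expanding leaves.

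The change from primordia to mature leaves was much alike at both CO2 levels. At 370 ppm, measured on other arrays, 9753 probe sets were called (78%), 4978 higher (39.8%) and 4775 lower (38.2%), and 8874 were called at both levels in the same direction, which is 90% of the elevated and 91% of the ambient calls, with 8 called in opposite directions. Over all probe sets the changes at the 2 levels correlated with r = 0.974. Probe sets are not independent replicates, and the stages of each level share a chamber. The difference of the change between CO2 levels was called for 1 of 12511 probe sets (0.00799%) in limma, and 1579 had an unadjusted p under 0.05 (12.6%). When 1 array was left out the count called ran from 0 to 23, the highest without mature replicate 2, and it was 7 without mature replicates 3 and 4. CO2 level and chamber cannot be told apart.

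The called difference was in a probe set that is unnamed here. At 750 ppm it was at 2.20, 2.20, 2.05 and 2.05 in primordia and at 2.83, 3.30, 3.68 and 3.32 in mature leaves, a change of 1.16 ± 0.15. At 370 ppm its change was -0.27 ± 0.15, and the difference of 1.43 ± 0.21 had an adjusted p of 0.0149. No probe set was called with the replicate number as a block, with only the 16 primordia and mature arrays, or without mature replicate 4, primordia replicate 3 or primordia replicate 4, so this call rests on those arrays and settings. Of named genes, the 5 with the smallest p for the difference were not called. ACS, an acetyl-CoA synthetase, changed by 0.64 ± 0.08 at 750 ppm and by 0.01 at 370 ppm (difference 0.63 ± 0.11, adjusted p = 0.123 in limma). AT4G24790 changed by -2.47 ± 0.20 and -1.07 (difference -1.40 ± 0.28, adjusted p = 0.123 in limma), and AT4G36640 by -1.45 ± 0.13 and -2.36. For NDB2, also not called, the estimated difference was 1.20 ± 0.42.

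**Figure D5:**
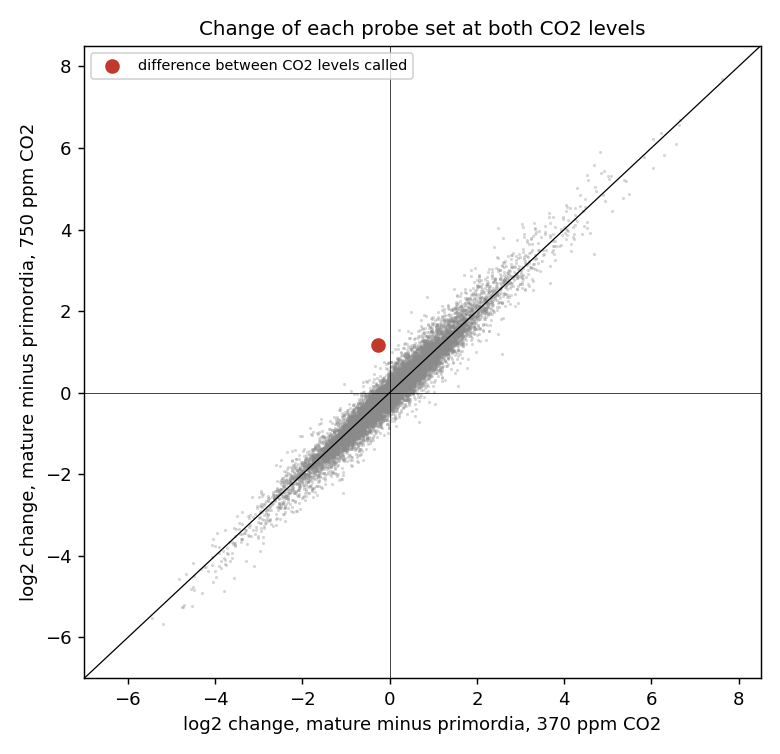
Log2 change, mature minus primordia, of each of 12511 probe sets at 370 ppm (x axis) and 750 ppm CO2 (y axis), measured on different arrays; the diagonal marks equal changes. The points follow the diagonal (r = 0.974), and the red point is the probe set whose difference was called, at -0.27 and 1.16.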

How the data were processed

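RNA from leaf 10 was labelled with a 3-prime kit and hybridised to 22 Affymetrix arrays, 1 per sample, in 6 groups of 3 or 4. The deposited table holds 1 value per probe set and array on a log scale taken as log2 from its range, with each array centred on its median; how the authors made these values is not given in the sources used here. Of 12570 probe sets, 59 controls were left out and 12511 tested. Of these 6782 named 1 gene, 262 several genes and 5467 are unnamed here. For a gene with several probe sets the one with the highest mean is given; there were 48 such genes.

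A cell-means model over the 6 groups was fitted by lmFit of limma 3.58.1 (R 4.3.3), and contrasts were tested two-sided after eBayes, with 16 residual degrees of freedom. P-values were adjusted over all 12511 probe sets by the Benjamini-Hochberg method. On data simulated from these arrays, 200 of 12511 probe sets were changed. Of those changed 1.25-fold 12% were called, of those changed 1.5-fold 68%, 2-fold 96% and 4-fold 100%. There were 10 false calls (6.76% of calls). In the real comparison of stages 78.8% of probe sets were called, far more than were changed in the simulation. The simulated shares therefore need not hold for the real fit. For the difference between CO2 levels the simulation gave 6 false calls, and 1 probe set was called in the real data. Whether that real call is false was not tested. The labels call the samples biological replicates for primordia, and for the other stages p-values measure the spread between samples, which may be technical. The number of arrays limits the precision.

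The genes named are the 15 largest called rises and falls whose groups do not overlap, list members beside their list's count, genes with the smallest p for the difference between CO2 levels, uncalled genes with the narrowest intervals and genes highest or lowest in expanding leaves. Members and lists were chosen with earlier results of these data known. The respiration lists were written after the table was at hand but before comparisons were computed, and 20 of 79 lists, and the removal of names matched to the wrong locus, were made after the largest changes had been seen. Alternatives were other scalings, array weights, another variance prior, a filter on low values, a replicate block, a 3-prime minus 5-prime covariate, fewer groups and leaving out arrays. No genome or sequence table was used here, so no coordinates or sequences are given.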

Additional observations from a re-analysis of the deposited data

Results flagged for a closer look

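In 28 of 698 groups of 4 arrays (4.01%), over 349 named genes, the highest or lowest array stood farther from the others than the 95% critical value of Dixon's test allows. Chance gives about 1 in 20. Of these, 18 were primordia arrays and 10 mature arrays, and mature replicates 3 and 4 gave 1 and 2.

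Among mature arrays, replicate 4 was high for SWEET11 (4.17) and FMA (-1.33), and replicate 3 was high for ChiC (-1.63). Replicate 1 was high for cox1 (0.10), AT1G76550 (-0.40) and CYP71B24 (0.43). Replicate 2 was high for AT5G48570 (-1.24) and UGT74D1 (0.67), and low for AT4G26910 (1.65) and UBC18 (1.09).

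Among primordia arrays, replicate 1 was low for AT1G35710 (-2.59), MPPBETA (3.19) and LSM6B (1.49). Replicate 2 was high for FATB (1.40), APG8H (1.68), BGLU44 (3.48), AT4G36640 (0.91) and AT3G16670 (1.44), and low for AT5G05250 (-1.57). Replicate 3 was low for SCPL49 (1.87) and high for AT5G22580 (1.47). Replicate 4 was high for AT3G57000 (1.95) and low for PRK (3.96), GRXC2 (2.96), GSTU16 (-2.05), SNF7.1 (-0.80), RALFL32 (-0.28) and ALDH11A3 (3.03).

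The change from primordia to mature leaves differed between CO2 levels, by limma's interaction term, in 1 unnamed probe set, by 1.43 on the log2 scale.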

How the results depend on the processing

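The count of probe sets called, 9856, ran from 9322 without mature replicates 3 and 4 to 9901 with array weights over the alternatives on all probe sets, and from 9576 to 9780 when 1 array was left out. The count at 2-fold, 4332, ran from 4236 to 4455 when 1 array was left out and was 2839 when limma's treat tested against a change of 1. With a filter on low values, at the 25th percentile of mean level, which tests fewer probe sets, the counts were 7660 and 3305. The difference between CO2 levels, 1 probe set, had 0 calls with the replicate number as a block, 0 with only the 16 primordia and mature arrays and 7 without mature replicates 3 and 4. When 1 array was left out it ran from 0 (without mature replicate 4, primordia replicate 3 or primordia replicate 4) to 23 (without mature replicate 2), with 2 without mature replicate 1, and the cause was not tested.

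Whether the replicate numbers pair the samples was not settled. The deviations of same-numbered arrays of the elevated stages correlated at -0.03, -0.10, -0.11 and 0.06, and low values over 4 arrays cannot show that samples were unpaired. Between CO2 levels the values were 0.26, -0.18, 0.08 and 0.12 for mature leaves and 0.04, 0.17, -0.16 and 0.22 for primordia. With the replicate block 9886 probe sets were called, and 4332 at 2-fold. Of the 349 named genes, no called gene changed direction under any alternative that tested it, and at most 13 lost their call, without mature replicates 3 and 4 and with centring on the 75th percentile. The sign turned in genes not called, among them AT5G05250 (0.96 to -0.18), AT1G04800 (-0.45 to 0.03) and AT4G17810 (-0.28 to 0.12) without mature replicates 3 and 4. That centring moved the median of all probe sets by -0.08, and 45.9% of calls were then higher against 49.7%. The arrays give no signal over background, so low transcripts cannot be told from undetected ones here, and 5467 unnamed probe sets could not be placed in any list.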

Other observations

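Other gene families held large changes in opposite directions. Of 23 measured ubiquitin-conjugating enzymes, ubiquitin proteases and U-box ligases, 10 were called higher and 9 lower, shares near those of all probe sets, or 8 and 8 without mature replicates 3 and 4. Among the conjugating enzymes UBC20 fell by 3.28 ± 0.13, while UBC29 and UBC30 rose by 3.66 ± 0.16 and 2.52 ± 0.13. UBC19, the close relative of UBC20, rose by 0.38 ± 0.08. Of 13 serine carboxypeptidase-like genes 5 were called higher and 6 lower, or 5 and 5 without those arrays, from scpl25 at -2.68 ± 0.14 to scpl48 at 2.78 ± 0.10. Of 15 TBL genes, a family that acetylates wall polysaccharides, 7 were called higher and 3 lower, with TBL38 and TBL39 at -2.30 ± 0.17 and -2.12 ± 0.15 and TBL26 at 3.41 ± 0.21. Without mature replicates 3 and 4 these counts were 6 and 4. Of 5 tetraspanins, membrane scaffold proteins, 4 were called higher, and TET3 rose by 4.53 ± 0.15. TET7 fell by 1.06 ± 0.13.

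Redox enzymes and some transcription factor families were mostly higher in mature leaves. Of 12 redox enzymes 8 were called higher and 2 lower (median change 0.51), or 7 and 1 without mature replicates 3 and 4, and the glutaredoxins GRXC1 and GRXC2 rose by 2.33 ± 0.13 and 1.25 ± 0.07. Of 11 bZIP factors 7 were called higher and 2 lower (median change 0.53), and BZIP60 and BZIP28, factors of the unfolded protein response, rose by 1.07 ± 0.16 and 0.57 ± 0.11. ILR3, bHLH104 and bHLH121, factors of the iron deficiency response, rose by 0.72 ± 0.07, 1.42 ± 0.11 and 1.02 ± 0.10. Among the 4 measured genes of the mitochondrial genome ccb382 fell by 1.57 ± 0.16, ccb452 rose by 0.57 ± 0.18 and nad4 was at 0.03 ± 0.18. How well the 3-prime kit labels transcripts of this genome was not tested either.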
